A study of Mus musculus with 8 samples.

Results

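The 48 genes described here encode lysosomal proteases and their inhibitors, glycosidases, lipid-handling proteins, lysosomal membrane proteins, subunits of the vacuolar proton pump (V-ATPase), and transcription factors of the TFEB family. They were listed by name and matched to the gene symbols of the array's platform annotation. Each gene was represented by 1 probe set, the one with a single symbol and the highest mean log2 intensity over the 8 arrays. All 48 of 48 were measured, among 18193 genes in all, and 31 of them had further probe sets.

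Total RNA was hybridised to 8 Affymetrix arrays, and it came from cultured mouse leukemia cells driven by MLL-AF9, the product of a gene fusion between the methyltransferase MLL and AF9. Cells labelled shSirt1 carried a hairpin against the deacetylase gene Sirt1 and were sampled after 21 days in EPZ4777 at 3 µM, which blocks the histone H3 methyltransferase DOT1L, or in DMSO, its vehicle. Cells labelled shLUC carried a control hairpin against luciferase and were sampled after 6 days in EPZ4777 at the same dose or in DMSO. All 4 groups thus shared the MLL-AF9 fusion and a culture medium with serum, SCF, IL-3 and IL-6, and each group held 2 arrays. The titles also carry a code that joins 1 EPZ4777 array to 1 DMSO array: A1 and A5 in cells labelled shSirt1, A4 and D11 in shLUC cells. The meaning of the codes is not explained in the labels. Nor do the labels tell whether a group's 2 arrays stem from independent cultures, so p-values here reflect the scatter of these arrays alone, and that scatter may be technical. The 2 arms differed in hairpin and in time in drug at once, so those cannot be told apart, and no time is given for the DMSO arrays.

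Lysosomes are acidified by the V-ATPase, and the acid activates proteases, glycosidases and lipases that digest material delivered by endocytosis, phagocytosis and autophagy. Many of these genes carry a motif with the core CACGTG, bound by TFEB and its relatives MITF, TFE3 and TFEC, which is known from human and mouse cells as a route by which lysosomal genes are switched on together. Macrophages hold large amounts of lysosomal proteins, and neutrophils store some of the same enzymes in granules.

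Over all arrays the median log2 intensity lay between 5.21 and 5.27. Ptprc and Mpo, genes of hematopoietic and early myeloid cells, were high on all 8 arrays, with log2 intensities from 11.54 to 12.63 and from 12.75 to 13.56. Sirt1 itself stood at 57.8% (EPZ4777) and 56.6% (DMSO) of the shLUC mean of the same condition on the A1 arrays, but at 106% and 102% on the A5 arrays. The A5 arrays therefore go against their label, and the group is called cells labelled shSirt1 throughout. On the A1 DMSO array some stromal genes stood high, among them Col3a1, a collagen chain, at 6.92 and Dcn, decorin, at 7.27. Their highest values on the other arrays were 3.13 and 4.79. The mean log2 intensity of 12 stromal markers was 6.74 on that array and 5.57 to 5.85 on the others. Their summed intensity did not set it apart, at 9300 against 6950 to 9528 on the others.

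The promoters of the listed genes were searched for the 7-base motif TCACGTG on either strand, in RefSeq windows from 250 bases before to 50 bases after each annotated start (build GRCm38.p6), and a gene counted once if any of its windows held the motif. A window was found for 41 of the 48 genes, and 10 of them (24.4%) held the motif, against 1160 of 27025 genes (4.29%). For the shorter core CACGTG the counts were 12 of 41 (29.3%) and 2187 of 27025 (8.09%). Several windows were listed for 5 of the 41 genes, and by window TCACGTG stood in 10 of 48 (20.8%) against 1237 of 32851 (3.77%). No window was found for Ctsb, Ctsh, Npc1, Asah1, Atp6v0d2, Atp6v1b2 and Atp6v1h. The last 110 bases before the start are shown for 4 genes described below, since they show how the motif is placed in a protease, a membrane protein, a channel and a gene whose drug differences had opposite signs in the arms. They lie at chr7:142387828-142387937 (minus strand, Ctsd), chr8:3500409-3500518 (plus strand, Mcoln1), chr8:13159051-13159160 (plus strand, Lamp1) and chr12:102439093-102439202 (minus strand, Lgmn), each ending at the base before the start. They are written 5′ to 3′ along the gene, with each match of TCACGTG or of its reverse complement in capitals.
Ctsd: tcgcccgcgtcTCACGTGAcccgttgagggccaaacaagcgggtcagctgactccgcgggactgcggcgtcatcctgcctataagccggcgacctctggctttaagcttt
Mcoln1: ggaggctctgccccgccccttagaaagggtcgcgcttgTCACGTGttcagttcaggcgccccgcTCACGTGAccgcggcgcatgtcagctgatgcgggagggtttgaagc
Lamp1: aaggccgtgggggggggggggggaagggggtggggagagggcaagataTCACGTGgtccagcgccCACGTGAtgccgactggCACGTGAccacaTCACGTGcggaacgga
Lgmn: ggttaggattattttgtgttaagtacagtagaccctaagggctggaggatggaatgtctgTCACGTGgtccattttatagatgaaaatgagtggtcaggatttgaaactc
Lamp1 held 4 matches, starting 62, 45, 28 and 16 bases before the start. Mcoln1 held 3, at 72, 46 and 45 bases, the last pair overlapping on opposite strands. In Ctsd the overlapping pair lay at 99 and 98 bases, with another match at 245 bases outside the stretch shown, and in Lgmn the single match began at 50 bases in the window shown, while its second window held none. A match is a run of letters, and binding was not measured.

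The first question was what EPZ4777 did to these genes. Averaged over both arms, 9 of the 48 rose and 0 fell at a Benjamini-Hochberg adjusted p under 0.05 in limma, against 10.9% of all genes called (4.88% higher and 6% lower). The genes that rose were the proteases Ctsb, Ctsk, Ctsd and Tpp1, the growth factor precursor Grn, the glycosidases Man2b1 and Neu1, and the V-ATPase subunits Atp6v0d2 and Atp6v0a1. The median averaged difference over the 48 was 0.21 log2, with 36 of them positive (51.2% of all genes), and it was 0.01 over all genes. At an unadjusted p under 0.05, 18 were higher and 2 lower in the average, against 12.4% and 15% of all genes. In cells labelled shSirt1 alone 0 of 48 passed (0.396% of all genes did, 0.214% higher and 0.181% lower), with a median of 0.13 and 27 positive (51.9%). In shLUC cells 4 of 48 rose and 0 fell (3.98% of all genes called, 1.62% higher and 2.36% lower), with a median of 0.28 and 39 positive (49.6%). At an unadjusted p under 0.05, 9 were higher and 3 lower in cells labelled shSirt1, against 7.83% and 7.98% of all genes, and 14 were higher and 0 lower in shLUC cells, against 9.49% and 12.2%. The EPZ4777 arrays lay wholly above the DMSO arrays for 20 genes and below them for 10 in cells labelled shSirt1, against 26% and 23% of all genes. In shLUC cells they lay above for 34 and below for 5, against 24.2% and 28.2%.

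With the code as a replicate block, 2 genes rose in cells labelled shSirt1 (Lyz2 and Atp6v0a1; 2.22% of all genes called), and 9 rose in shLUC cells (7.23%). In the average 13 then rose and 1, Tfec, fell (16.1%). Most averaged calls were lost in several of the fits without 1 array, which have less power for every gene. The averaged differences of the called genes stayed positive in all of these fits. They ranged, for example, from 0.38 to 0.55 for Tpp1, from 0.71 to 0.94 for Neu1 and from 1.06 to 1.92 for Atp6v0d2. Without both A5 arrays 1 passed in the average, Lyz2, and without both A1 arrays 2 passed, Lyz2 and Man2b1. A fit that leaves 1 array in a group assumes that it varies like the other groups.

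Set within each code, EPZ4777 minus DMSO was positive for 32 of 48 genes in A1, 27 in A5, 40 in A4 and 41 in D11. Over all genes these shares were 52%, 51.1%, 51.6% and 46.7%. The median over the 48 was 0.05 in A1, 0.15 in A5, 0.24 in A4 and 0.34 in D11. Higher in all 4 codes were 25 of the 48 genes, against 18.7% of all genes, and 3 were lower in all 4, against 19.6%.

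**Figure D1:**
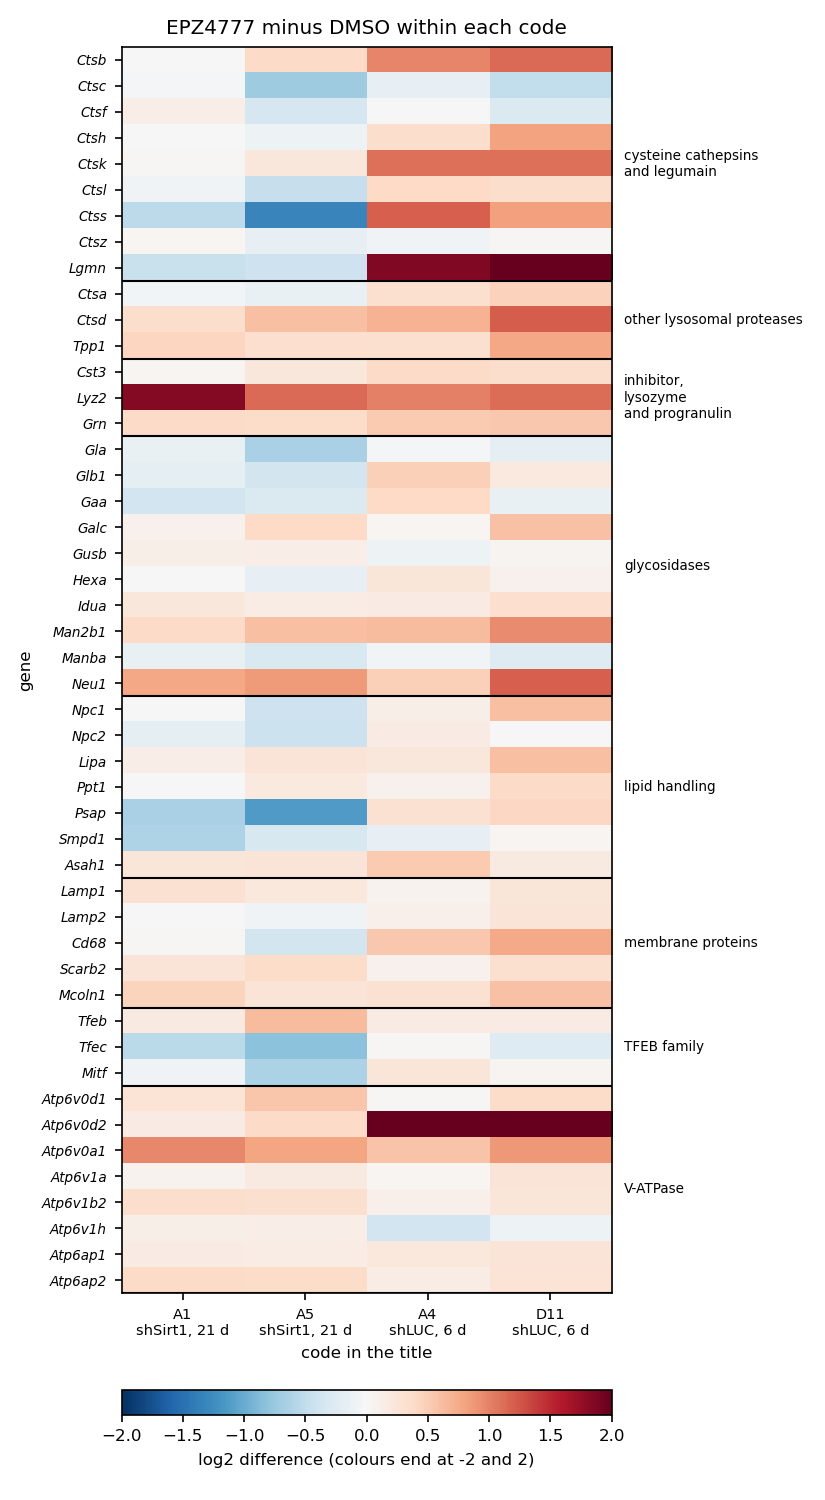
Colour map of the log2 difference EPZ4777 minus DMSO for each of the 48 genes (down the page, by role) within each code (across: A1 and A5 labelled shSirt1 at 21 days, A4 and D11 shLUC at 6 days). Red is higher in EPZ4777, blue lower, and the scale ends at -2 and 2. The A1 and A5 columns hold 32 and 27 positive genes, the A4 and D11 columns 40 and 41.

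Among the 9 cysteine cathepsins and legumain, limma called 0 in cells labelled shSirt1, where the median was -0.10 and 1 gene, Ctss, was lower at an unadjusted p under 0.05. In shLUC cells 3 of the 9 rose, with a median of 0.57 and negative differences for Ctsc, Ctsf and Ctsz. In the average 2 of 9 rose. Ctsb encodes an abundant cathepsin of most cells. In cells labelled shSirt1 its log2 intensity was 10.60 and 11.06 in EPZ4777 and 10.60 and 10.68 in DMSO (A1 and A5, the order kept below). In shLUC cells it was 11.95 and 12.35 in EPZ4777 and 10.98 and 11.21 in DMSO (A4 and D11, likewise kept). The shLUC EPZ4777 arrays thus stood above all 6 others. Ctsb rose 2.07-fold in shLUC cells (log2 1.05 ± 0.20, SE, n = 2 each; limma adjusted p = 0.041), and its difference in cells labelled shSirt1 was 0.19 ± 0.20 (limma adjusted p = 0.66). In the average it rose by 0.62 ± 0.14 (0.038). Both calls were lost with the mean of its probe sets (0.071 in shLUC cells, 0.070 in the average), and the first also in a fit of the compared arrays alone (0.051).

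Ctsk, whose product degrades collagen and is best known from osteoclasts, had the same layout. It stood at 4.81 and 4.99 in EPZ4777 and 4.78 and 4.75 in DMSO in cells labelled shSirt1, and at 5.85 and 6.19 in EPZ4777 and 4.75 and 5.09 in DMSO in shLUC cells. The rise in shLUC cells was 1.10 ± 0.17 (limma adjusted p = 0.031, but 0.051 with the compared arrays alone), and the difference in cells labelled shSirt1 was 0.13 ± 0.17. Of 7 osteoclast markers, limma called 0 in either arm (1 higher in each at an unadjusted p under 0.05), and 1 rose in the average, Nfatc1, a transcription factor, by 0.58 ± 0.14 (limma adjusted p = 0.046). Over the 7 markers the averaged differences were positive for 4 and negative for 3, with a median of 0.02. Nfatc1 lay between 7.39 and 8.33 on the 8 arrays, with all 4 EPZ4777 arrays above all 4 DMSO arrays. Acp5 and Mmp9 lay between 5.97 and 7.04 and between 5.11 and 10.21, and Calcr, Oscar, Dcstamp and Ocstamp between 2.54 and 5.12. The part of these markers in the result was not tested.

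Lgmn encodes legumain, an asparaginyl endopeptidase that also trims cathepsins to their mature forms. Its values were 3.90 and 4.67 in EPZ4777 and 4.35 and 5.09 in DMSO in cells labelled shSirt1. In shLUC cells they were 6.93 and 7.55 in EPZ4777 and 5.07 and 5.46 in DMSO. Each shLUC code went up and each code labelled shSirt1 went down. All values in cells labelled shSirt1 were dim, below the medians of those arrays (5.21 to 5.26). The rise in shLUC cells was 3.93-fold (log2 1.97 ± 0.36, limma adjusted p = 0.040), and the difference in cells labelled shSirt1 was -0.43 ± 0.36 (adjusted p = 0.59). With the replicate block Lgmn also passed in the average (0.77, adjusted p = 0.010, against 0.10 without it).

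Ctss encodes cathepsin S, which cleaves the invariant chain of MHC class II molecules. It stood at 9.02 and 9.17 in EPZ4777 and 9.54 and 10.50 in DMSO in cells labelled shSirt1, and at 12.38 and 12.34 in EPZ4777 and 11.18 and 11.52 in DMSO in shLUC cells. The arrays of each arm did not overlap between the agents, but the order was opposite. Neither difference passed (-0.92 ± 0.29, adjusted p = 0.22, in cells labelled shSirt1; 1.01 ± 0.29, adjusted p = 0.098, in shLUC cells), and the average was 0.04. Averaged differences of the other 5 genes of this group lay between -0.35 (Ctsc) and 0.26 (Ctsh), and none passed. For Ctsc, the gene of the cathepsin that activates granule serine proteases, both other probe sets, which were dimmer, fell in the average (-1.38 and -1.57, adjusted p = 0.024 and 0.016 over probe sets), so its probe sets disagreed on the call. The dimmest of them also fell in shLUC cells (-1.94, adjusted p = 0.035 over probe sets). With the mean of its probe sets Ctsc was called as fallen in the average.

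**Figure D2:**
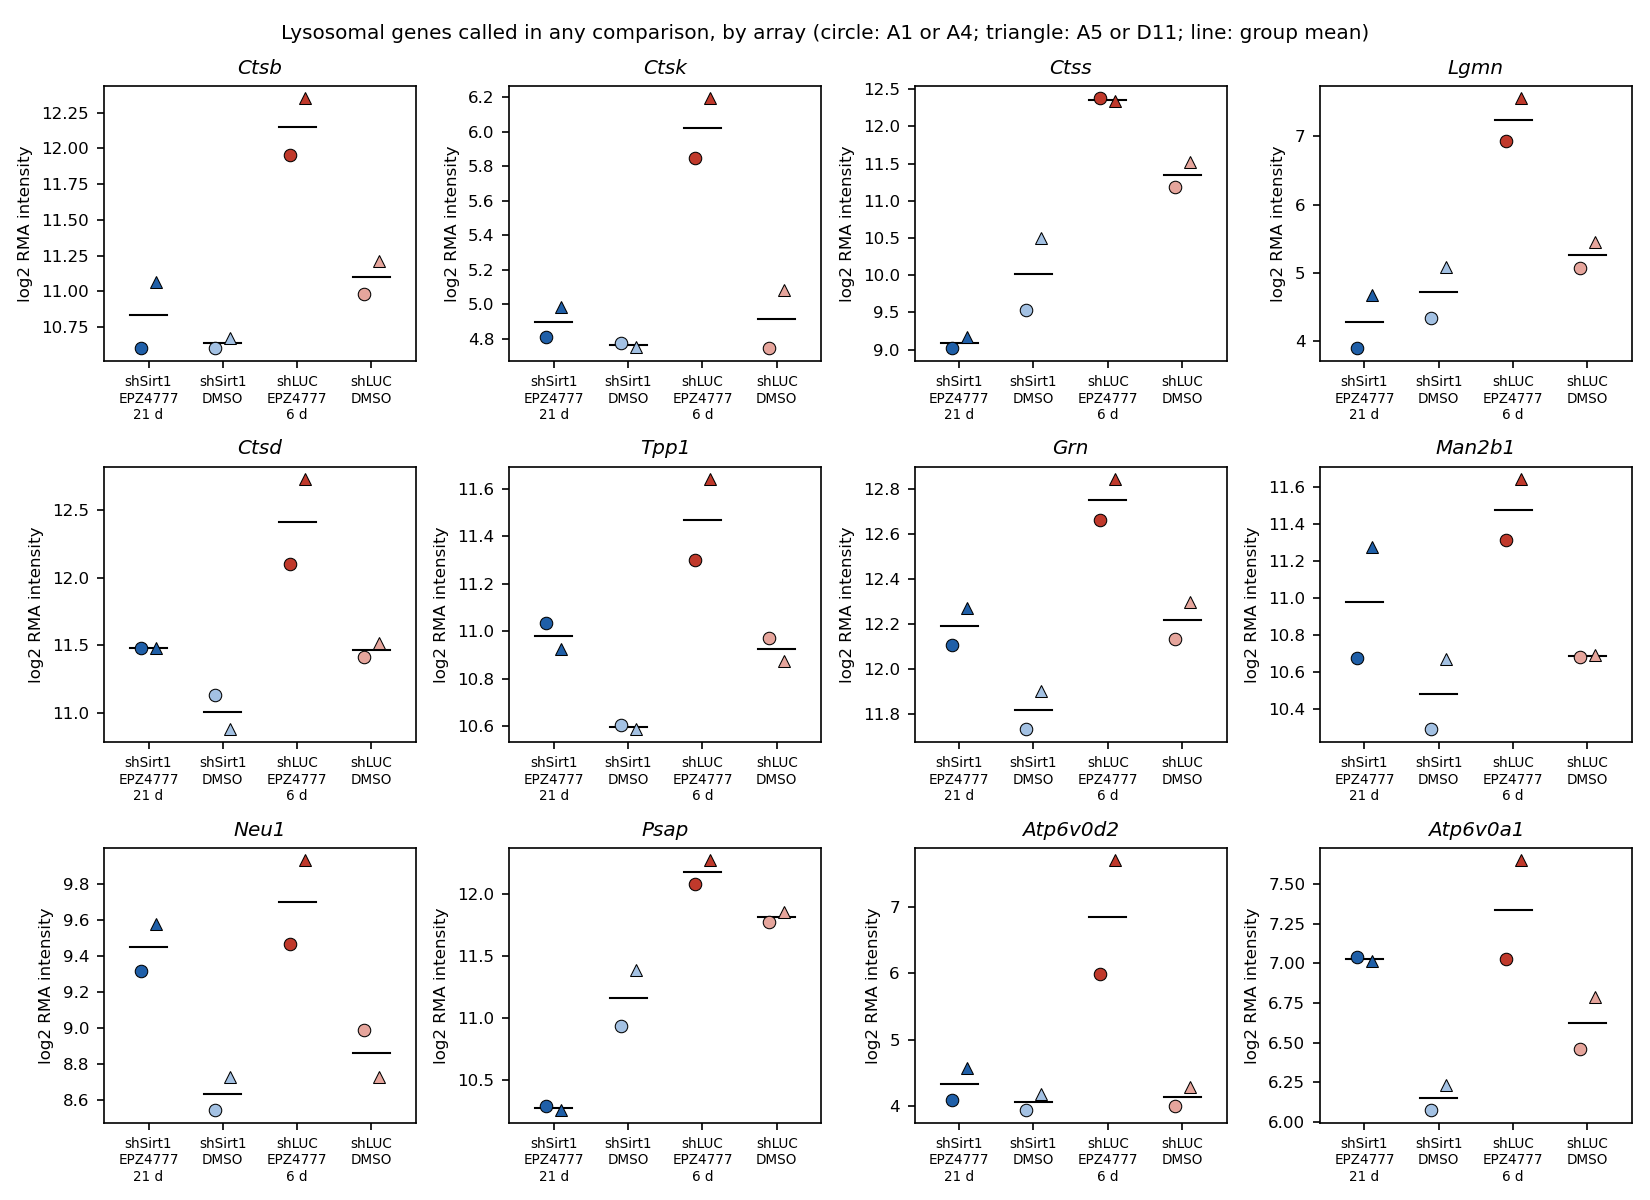
The log2 RMA intensity on each array for the 12 genes called in any comparison, with a panel per gene, the groups across (cells labelled shSirt1, then shLUC, each in EPZ4777 and DMSO), and a line at each mean of 2 arrays. Ctsb, Ctsk, Lgmn and Atp6v0d2 are high on both shLUC EPZ4777 arrays, whereas Neu1 and Atp6v0a1 are higher in EPZ4777 in both arms, and axes do not start at 0.

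Of the other 3 proteases, Ctsd and Tpp1 rose in the average. Ctsd encodes cathepsin D, the main aspartic protease of lysosomes. Its levels were 11.48 and 11.48 in EPZ4777 and 11.13 and 10.88 in DMSO in cells labelled shSirt1, and 12.10 and 12.72 in EPZ4777 and 11.41 and 11.51 in DMSO in shLUC cells. It was higher in EPZ4777 in all 4 codes, by 0.71 ± 0.14 in the average (n = 4 each, limma adjusted p = 0.030). Tpp1, a tripeptidyl peptidase lost in a childhood lysosomal storage disease, stood at 11.03 and 10.92 in EPZ4777 and 10.60 and 10.59 in DMSO in cells labelled shSirt1, and at 11.30 and 11.64 in EPZ4777 and 10.97 and 10.87 in DMSO in shLUC cells. Within each arm the arrays of the agents did not overlap, and the average rise was 0.47 ± 0.10 (limma adjusted p = 0.031). Ctsa, the protective protein of lysosomal sialidase, averaged 0.15 and did not pass.

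Grn encodes progranulin, a secreted precursor that is processed in lysosomes. It stood at 12.11 and 12.27 in EPZ4777 and 11.73 and 11.90 in DMSO in cells labelled shSirt1, and at 12.66 and 12.84 in EPZ4777 and 12.13 and 12.30 in DMSO in shLUC cells. It was higher in every code, by 0.45 ± 0.09 in the average (limma adjusted p = 0.030). Lyz2, the lysozyme of macrophages and granulocytes, had values of 12.56 and 13.60 in EPZ4777 and 10.72 and 12.46 in DMSO in cells labelled shSirt1. In shLUC cells they were 13.74 and 14.06 in EPZ4777 and 12.73 and 12.93 in DMSO. Every code was higher in EPZ4777, but A1 lay below A5 under both agents, and the average of 1.28 ± 0.40 did not pass (limma adjusted p = 0.085). With the replicate block it passed in cells labelled shSirt1 (adjusted p = 0.032), in shLUC cells (0.039) and in the average (0.010). Cst3, the secreted cystatin C that inhibits cathepsins, averaged 0.25 and did not pass.

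Marker genes of neutrophils moved with these values. The summed intensity of 10 neutrophil markers was 60869 and 103585 in EPZ4777 and 11452 and 28740 in DMSO in cells labelled shSirt1, and 59829 and 100995 in EPZ4777 and 26797 and 34966 in DMSO in shLUC cells. Of the 10, limma called 0 in cells labelled shSirt1. There 8 were higher at an unadjusted p under 0.05 (7.83% of all genes) and 5 rose with the replicate block (1.31%). In shLUC cells 2 rose (1.62% of all genes), and 6 rose in the average (4.88%), all 10 with a positive difference. Their part in the lysosomal differences was not tested, and in bulk RNA more cells of a type and more RNA per cell cannot be told apart.

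Of the 10 glycosidases, 2 rose in the average and their median was 0.05. Neu1, the lysosomal sialidase, stood at 9.32 and 9.58 in EPZ4777 and 8.55 and 8.73 in DMSO in cells labelled shSirt1, and at 9.46 and 9.93 in EPZ4777 and 8.99 and 8.73 in DMSO in shLUC cells. All 4 EPZ4777 arrays lay above all 4 DMSO arrays. The difference was nearly the same size in both arms, 0.81 ± 0.19 in cells labelled shSirt1 and 0.84 ± 0.19 in shLUC cells. Neither passed alone (adjusted p = 0.14 and 0.060), but the average rose by 0.82 ± 0.13 (limma adjusted p = 0.019).

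Man2b1, the lysosomal alpha-mannosidase, stood at 10.68 and 11.28 in EPZ4777 and 10.29 and 10.67 in DMSO in cells labelled shSirt1, and at 11.31 and 11.64 in EPZ4777 and 10.68 and 10.69 in DMSO in shLUC cells. It was higher in each code and rose by 0.64 ± 0.16 in the average (limma adjusted p = 0.049), a call lost when probe sets were averaged (0.079), tested singly (0.055) or arrays were centred (0.055). The other 8 glycosidases averaged between -0.25 (Gla) and 0.28 (Galc), and none passed. Gla, the alpha-galactosidase lost in Fabry disease, and Manba, the beta-mannosidase, were named after their values were seen: all 4 EPZ4777 arrays of both lay below all 4 DMSO arrays, the only 2 of the 48 with that layout (9.94% of all genes).

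In the lipid-handling group limma called 0 of 7 genes in either arm or in the average, with 1 at an unadjusted p under 0.05 in cells labelled shSirt1 (Psap, lower), 0 in shLUC cells and 1 in the average (Asah1, higher). Psap encodes prosaposin, the precursor of the saposins that help enzymes reach sphingolipids. It stood at 10.29 and 10.26 in EPZ4777 and 10.94 and 11.39 in DMSO in cells labelled shSirt1, and at 12.08 and 12.27 in EPZ4777 and 11.78 and 11.86 in DMSO in shLUC cells. Its difference was -0.89 ± 0.16 in cells labelled shSirt1 (limma adjusted p = 0.084) and 0.36 ± 0.16 in shLUC cells (0.26). With the code as a random replicate block Psap fell in cells labelled shSirt1 (limma adjusted p = 0.028). A dimmer second probe set of Psap had differences of -0.75 and 0.22 in the arms, with the same signs.

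Lipa, the acid lipase that splits cholesteryl esters, had 8.84 and 9.50 in EPZ4777 and 8.71 and 9.24 in DMSO in cells labelled shSirt1, and 9.53 and 9.85 in EPZ4777 and 9.30 and 9.25 in DMSO in shLUC cells. It was higher in every code, but its average of 0.30 ± 0.19 did not pass (limma adjusted p = 0.35, or 0.084 with the replicate block). Asah1, acid ceramidase, had 11.28 and 11.44 in EPZ4777 and 11.04 and 11.18 in DMSO in cells labelled shSirt1, and 11.47 and 11.57 in EPZ4777 and 10.95 and 11.39 in DMSO in shLUC cells, with an average of 0.30 ± 0.12 (adjusted p = 0.15). The cholesterol carriers Npc1 and Npc2, the thioesterase Ppt1 and the sphingomyelinase Smpd1 averaged between -0.27 (Smpd1) and 0.16 (Ppt1).

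Of the 5 membrane proteins limma called 0, and all 5 averages were positive, 2 of them at an unadjusted p under 0.05 (Lamp1 and Mcoln1). Lamp1, the most used lysosomal marker, stood at 12.69 and 12.67 in EPZ4777 and 12.39 and 12.47 in DMSO in cells labelled shSirt1, and at 12.86 and 13.05 in EPZ4777 and 12.79 and 12.81 in DMSO in shLUC cells. Its average of 0.20 ± 0.08 did not pass (limma adjusted p = 0.14). Scarb2, the receptor that carries beta-glucocerebrosidase to lysosomes, had 9.91 and 10.26 in EPZ4777 and 9.66 and 9.89 in DMSO in cells labelled shSirt1, and 9.97 and 10.23 in EPZ4777 and 9.88 and 9.91 in DMSO in shLUC cells. All 4 EPZ4777 arrays exceeded the DMSO arrays by small steps, and the average of 0.26 ± 0.11 did not pass (0.20). A slightly dimmer probe set of Scarb2 did not share this layout. Its differences were 0.19 in cells labelled shSirt1, -0.18 in shLUC cells and 0.007 in the average.

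Mcoln1 encodes the lysosomal calcium channel mucolipin. It had 7.996 and 7.86 in EPZ4777 and 7.56 and 7.61 in DMSO in cells labelled shSirt1, and 8.08 and 8.45 in EPZ4777 and 7.76 and 7.87 in DMSO in shLUC cells. Higher in every code, it averaged 0.40 ± 0.10, just outside the threshold (limma adjusted p = 0.053; 0.037 with the replicate block). Lamp2 and Cd68 averaged 0.07 and 0.24. The probe sets of Lamp2 disagreed: a slightly dimmer one rose in shLUC cells (0.64, adjusted p = 0.037 over probe sets) and in the average (0.45, 0.025).

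The transcription factors did not move as a group. Tfeb, whose product binds the motif shown above, stood at 7.10 and 7.35 in EPZ4777 and 6.93 and 6.72 in DMSO in cells labelled shSirt1, and at 7.23 and 7.18 in EPZ4777 and 7.06 and 7.02 in DMSO in shLUC cells. The agents' arrays did not overlap, but the average of 0.29 ± 0.09 did not pass (limma adjusted p = 0.091). Tfec, the family member found mostly in macrophages, stood at 10.62 and 11.002 in EPZ4777 and 11.15 and 11.82 in DMSO in cells labelled shSirt1, and at 11.72 and 11.45 in EPZ4777 and 11.70 and 11.71 in DMSO in shLUC cells. It was lower in both codes labelled shSirt1, and its average of -0.40 ± 0.17 did not pass (0.18), while with the replicate block it fell (0.045).

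Mitf, known for melanocytes and osteoclasts, had 7.62 and 7.05 in EPZ4777 and 7.68 and 7.69 in DMSO in cells labelled shSirt1, and 8.21 and 8.41 in EPZ4777 and 7.96 and 8.35 in DMSO in shLUC cells, with an average of -0.10 ± 0.15. Tfe3, the fourth relative, averaged 0.10 and did not pass. Among the genes with a promoter window, 1 of the 10 with TCACGTG rose in the average (Ctsd) and 6 of the 31 without it rose, with medians of 0.18 and 0.20.

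Of the 8 V-ATPase genes, 2 rose in the average, and 8 of 8 differences were positive in cells labelled shSirt1 and 7 of 8 in shLUC cells. Atp6v0d2 encodes a d subunit of the membrane sector that is rich in osteoclasts and macrophages. It stood at 4.09 and 4.56 in EPZ4777 and 3.93 and 4.18 in DMSO in cells labelled shSirt1, and at 5.99 and 7.71 in EPZ4777 and 3.99 and 4.28 in DMSO in shLUC cells. Both shLUC EPZ4777 arrays stood far above the other 6, D11 more than A4. The rise in shLUC cells was 6.55-fold (log2 2.71 ± 0.50, limma adjusted p = 0.040), and the difference in cells labelled shSirt1 was 0.27 ± 0.50 (0.82). The call in shLUC cells was lost with robust variance (0.052) or the compared arrays alone (0.062), and the averaged call (1.49, 0.042) with robust variance (0.062). Its second, dimmer probe set rose in shLUC cells too (3.55, adjusted p = 0.023 over probe sets).

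Atp6v0a1 encodes an a subunit of the same sector. It stood at 7.04 and 7.01 in EPZ4777 and 6.07 and 6.23 in DMSO in cells labelled shSirt1, and at 7.03 and 7.65 in EPZ4777 and 6.46 and 6.79 in DMSO in shLUC cells. All 4 EPZ4777 arrays lay above all 4 DMSO arrays, with differences of 0.87 ± 0.21 and 0.72 ± 0.21 in the arms. The average rose by 0.80 ± 0.15 (limma adjusted p = 0.026), and with the replicate block the gene also passed in cells labelled shSirt1 (0.041) and in shLUC cells (0.038). Its other probe sets, which were dimmer, averaged 0.34, 0.02 and 0.28 and did not pass (adjusted p = 0.23, 0.94 and 0.12 over probe sets). Their differences in shLUC cells were 0.28, -0.12 and 0.03. With the mean of its probe sets the average shrank to 0.36 but still passed. The other 6 subunits and accessory proteins averaged between -0.06 (Atp6v1h) and 0.31 (Atp6v0d1). Over all 48 genes, the 4 EPZ4777 arrays lay above the 4 DMSO arrays for 5 (8.05% of all genes): Neu1, Scarb2, Tfeb, Atp6v0a1 and the accessory protein gene Atp6ap2, the last named after its values were seen.

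The 4 calls in shLUC cells (Ctsb, Ctsk, Lgmn and Atp6v0d2) were fewer than those of the average. They were lost in several of the fits without 1 array, which have less power for every gene. The differences stayed positive there, from 0.85 to 1.25 for Ctsb and from 0.93 to 1.28 for Ctsk. Those of Lgmn ranged from 1.66 to 2.28 and those of Atp6v0d2 from 1.85 to 3.57. A fit of the compared arrays alone called Ctss, Lgmn and Lyz2, so that of the 4 it kept Lgmn. Ctsk, Lgmn and Atp6v0d2 were dim, with mean levels at percentiles 38.4, 41.5 and 34.0 of all genes, and Ctsb stood at 94.5. With genes below the median level left out, 1 of the 4, Ctsb, stayed in the fit, and it kept its call. Some genes of macrophages moved with the calls in shLUC cells. Of 13 measured macrophage markers, limma called 0 in cells labelled shSirt1 (0 also at an unadjusted p under 0.05). In shLUC cells 6 rose, against 1.62% of all genes. Among them were Mrc1, the mannose receptor, by 4.19, and C1qb, a complement chain, by 3.33. The other 7 did not pass: Mertk 0.95, Adgre1 0.52, Cd14 0.30, Marco 0.19, Csf1r 0.13, Siglec1 0.08 and Apoe -0.29. The summed intensity of the 13 was 1469 and 1988 in EPZ4777 and 1121 and 2362 in DMSO in cells labelled shSirt1, and 5432 and 7760 in EPZ4777 and 2881 and 3748 in DMSO in shLUC cells. The markers' part in the lysosomal differences was not tested.

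**Figure D3:**
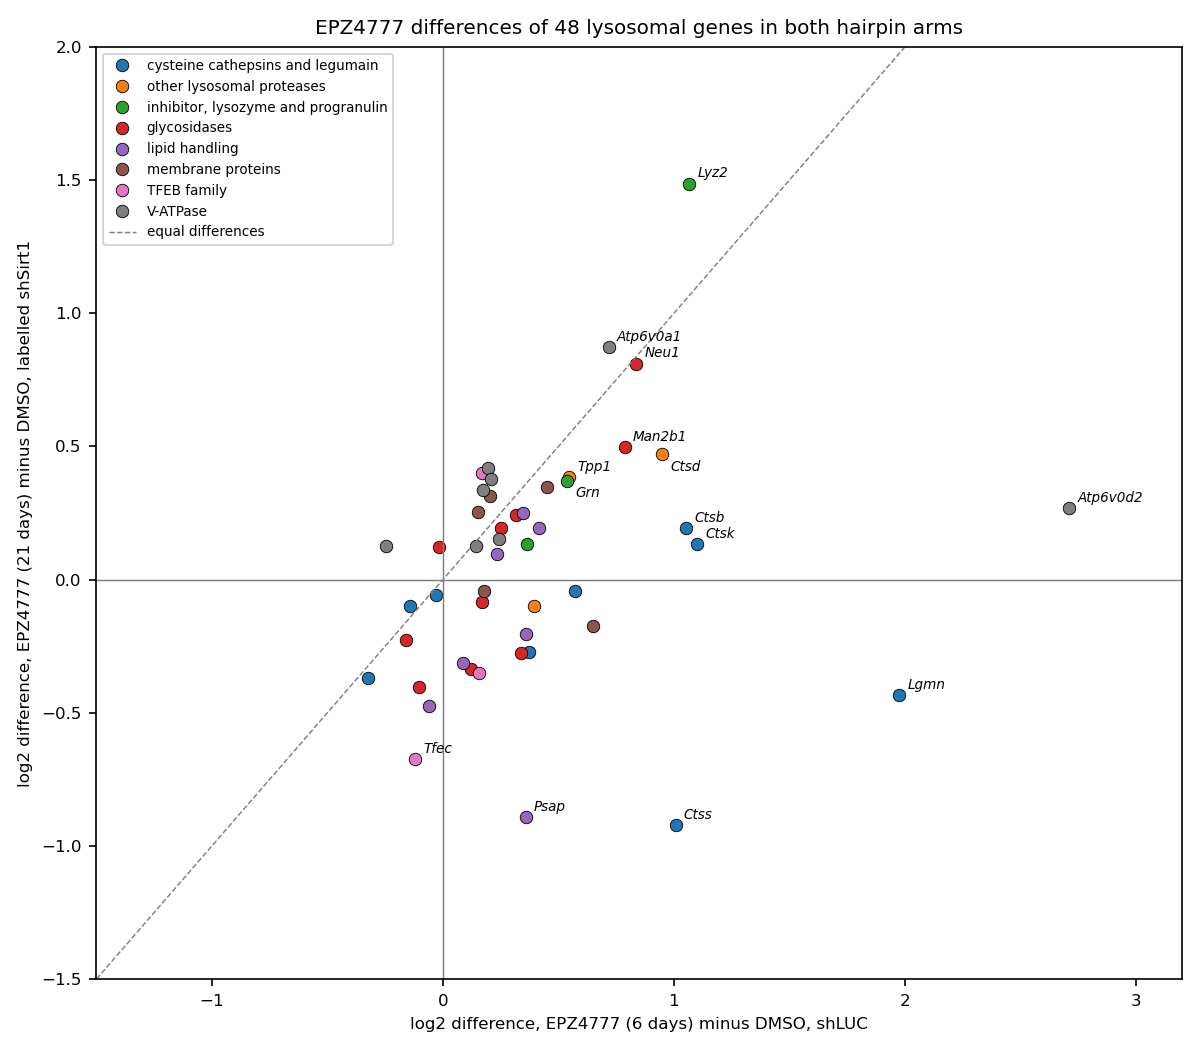
Each point is 1 of the 48 genes, with the log2 difference EPZ4777 minus DMSO in shLUC cells (6 days) across and in cells labelled shSirt1 (21 days) up, coloured by role, and the dashed line marks equal differences. Neu1 and Atp6v0a1 lie close to the line, and Atp6v0d2, Lgmn, Ctss and Psap lie far below it.

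The second question was whether the arms differed in their response to EPZ4777. For the difference of the drug effects, cells labelled shSirt1 minus shLUC cells, limma called 0 of the 48 and 0 of all genes (0%). At an unadjusted p under 0.05, 0 of the 48 were positive and 8 negative, against 3.49% and 3.22% of all genes, and the median was -0.19 (0.03 over all genes), with 11 positive (54.4% of all genes). Of the 48, 10 were lower in both codes labelled shSirt1 and higher in both shLUC codes, against 5.3% of all genes. Only Atp6v1h, a regulatory V-ATPase subunit, had the opposite layout among the 48, against 5.9% of all genes. The correlation of the drug differences between the arms was 0.24 over the 48 genes and 0.65 over all genes (Pearson's r, across genes that are not independent replicates).

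The third question was how the arms differed under each agent. In EPZ4777, at 21 against 6 days, 3 of the 48 were lower in cells labelled shSirt1 than in shLUC cells and 0 higher, against 0.308% of all genes (0.242% lower and 0.066% higher). Ctss was 9.61-fold lower (log2 -3.26 ± 0.29, limma adjusted p = 0.019), Lgmn 7.73-fold lower (-2.95 ± 0.36, 0.040, but 0.087 with the compared arrays alone) and Psap 3.74-fold lower (-1.90 ± 0.16, 0.019), with the array values given above. For all 3 genes, both arrays labelled shSirt1 lay below both shLUC arrays. In DMSO the differences already stood at -1.34 ± 0.29 for Ctss, -0.54 ± 0.36 for Lgmn and -0.65 ± 0.16 for Psap, and none passed. The calls in EPZ4777 use the same shLUC EPZ4777 arrays as the drug comparison in shLUC cells, so Lgmn in both is not independent. At an unadjusted p under 0.05, 26 of the 48 were lower and 0 higher, against 6.44% and 6.9% of all genes.

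The arrays did not overlap, with cells labelled shSirt1 lower, for 36 of the 48 genes (18.2% of all genes), and above for 0 (21%). The median over the 48 was -0.46, with 3 positive (51.6% of all genes). Largest after Ctss and Lgmn were Atp6v0d2 (-2.52 ± 0.50, limma adjusted p = 0.10), and Cd68, a macrophage sialomucin, at -2.13 (named after its values were seen). A second probe set of Atp6v0d2 passed (-3.53, 0.037 over probe sets). Of the 13 macrophage markers, 3 were lower in cells labelled shSirt1 in EPZ4777, against 0.242% of all genes. All 3 lysosomal calls were lost without the A5 or D11 EPZ4777 array or either shLUC DMSO array. They were lost too without the A4 EPZ4777 array, where 1 other gene passed, Atp6v0d2. Without both A5 arrays, which leaves 1 array labelled shSirt1 per agent and its spread assumed like that of shLUC cells, 6 were lower: Ctsh, Ctsl, Ctss, Lgmn, Psap and Cd68.

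In DMSO, limma called 0 of the 48 and 0 of all genes (0%) between cells labelled shSirt1 and shLUC cells. The differences nevertheless lay mostly on the negative side, with 5 of 48 positive against 46.9% of all genes, and a median of -0.29. At an unadjusted p under 0.05, 1 was higher (Glb1, beta-galactosidase) and 16 were lower, against 2.01% and 3.4% of all genes. The arrays of cells labelled shSirt1 lay below the shLUC arrays for 36 genes and above them for 2, against 22.2% and 17% of all genes. Fits without the A5 DMSO array (Ctss lower) or both A5 arrays (Ctss, Lyz2 and Cd68 lower) had calls, but they leave 1 array labelled shSirt1 in DMSO, which is assumed to vary like the other groups. That A1 DMSO array is the one with high Col3a1 and Dcn. Of the 13 macrophage markers, limma called 0 in DMSO, with 4 differences positive, 9 negative and a median of -0.77. At an unadjusted p under 0.05, 0 of them were higher and 5 lower, against 2.01% and 3.4% of all genes. The part of stromal and macrophage genes in the lysosomal differences was not tested.

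**Figure D4:**
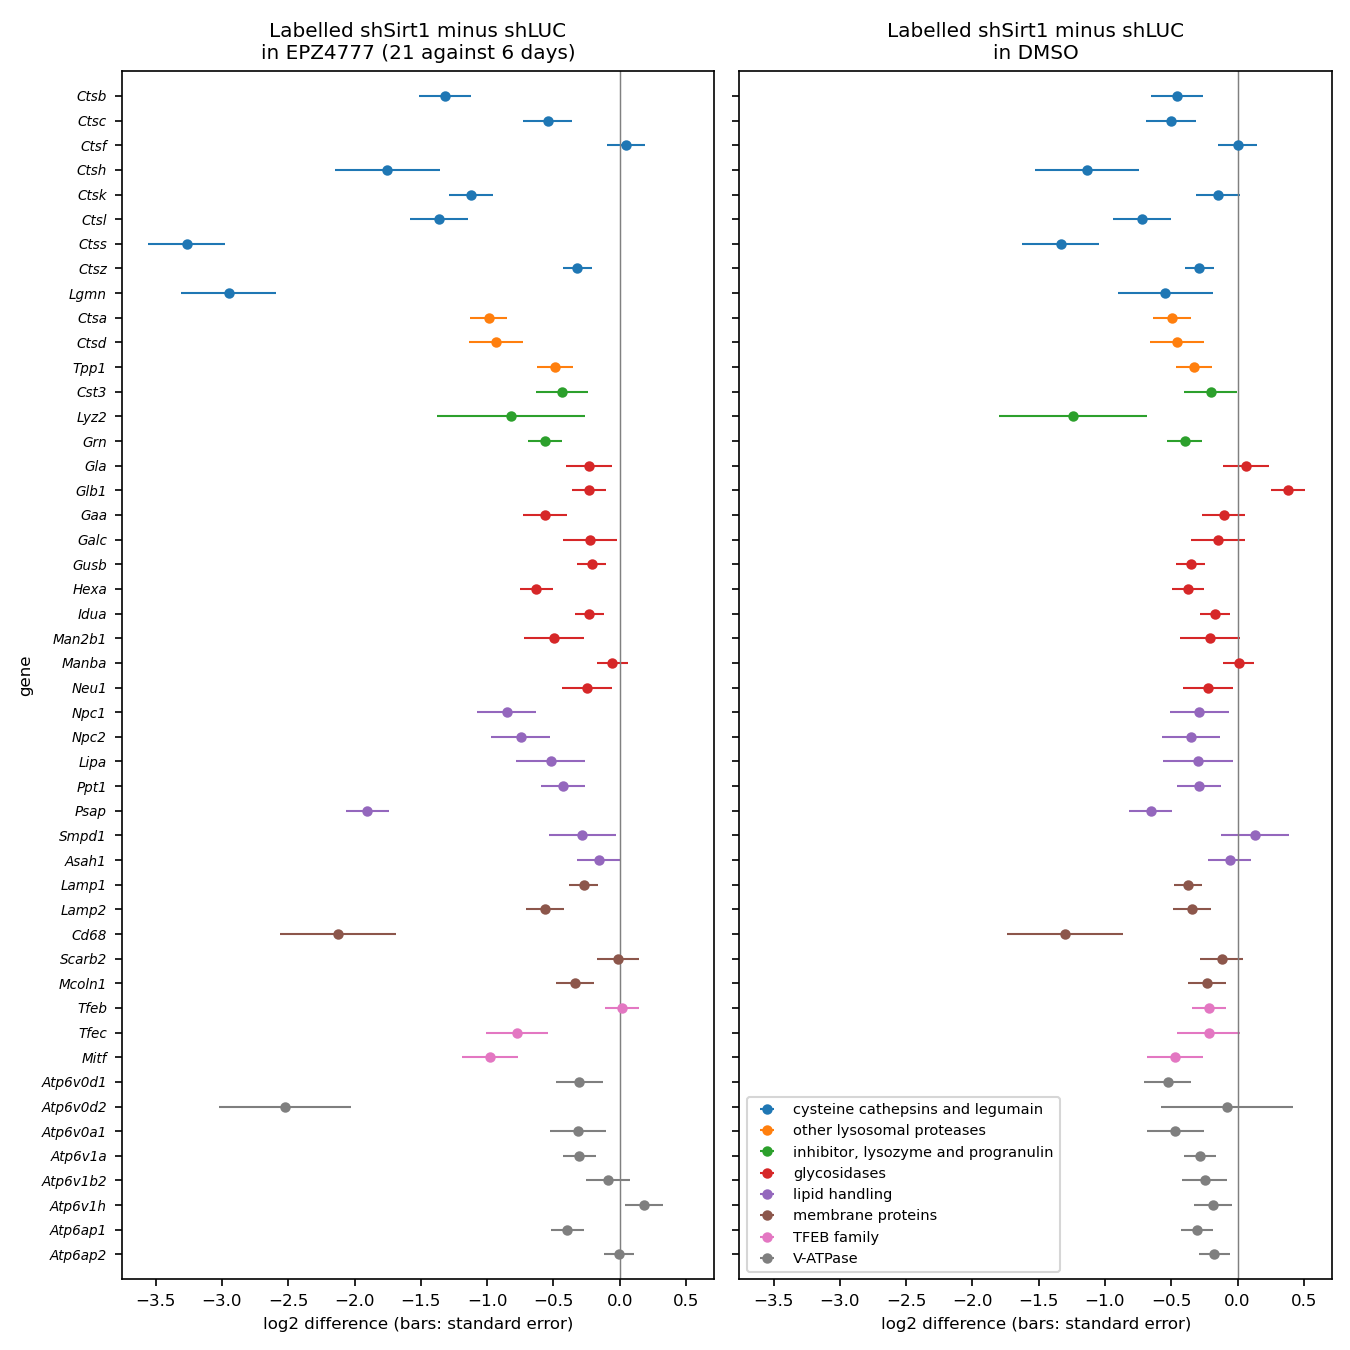
The log2 difference, cells labelled shSirt1 minus shLUC cells, with its standard error for each of the 48 genes, in EPZ4777 (left, 21 against 6 days) and in DMSO (right), coloured by role. In EPZ4777, Ctss, Lgmn and Psap were called lower and the median was -0.46, and in DMSO no gene was called and the median was -0.29.

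Lysosomal genes outside the 48 were taken from 5 further lists. Over all genes 4.88% rose and 6% fell in the average, and the counts of each list stand against those shares. Of 28 other hydrolases and activators measured, 6 rose and 1 fell in the average. As a list they did not lean upward: 14 averages were positive and 14 negative (51.2% of all genes positive), with a median of 0.004. Arsb, arylsulfatase B, rose by 1.64 ± 0.25 (limma adjusted p = 0.017), Ctse, an aspartic cathepsin of immune cells, by 1.42 ± 0.31 (0.035), and Smpdl3a, a phosphodiesterase, by 0.84 ± 0.20 (0.042). Dpp7, a dipeptidyl peptidase, rose by 0.72 ± 0.16 (0.036). The gene that fell was Gnptab, part of the enzyme that tags hydrolases with mannose phosphate, at -0.48 ± 0.07 (0.017), and it was the one called gene of the list with a negative difference. In cells labelled shSirt1 limma called 0 of 28 (5 higher and 4 lower at an unadjusted p under 0.05, against 7.83% and 7.98% of all genes), and in shLUC cells 1 rose, Sumf1, the activator of sulfatases. Differences were positive for 9 and negative for 19 in cells labelled shSirt1 (median -0.17). In shLUC cells they were positive for 21 and negative for 7 (median 0.22).

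Of 29 other membrane and sorting proteins, 4 rose and 0 fell in the average. Lyst, the trafficking gene mutated in the beige mouse, rose by 2.03 ± 0.22 (limma adjusted p = 0.0096), with differences of 1.97 in cells labelled shSirt1 and 2.09 in shLUC cells. Gpnmb, a glycoprotein of macrophage lysosomes, rose by 1.72 ± 0.39 (0.038), Sort1, the sorting receptor sortilin, by 0.57 ± 0.11 (0.029), and Slc36a1, a proton-coupled amino acid transporter, by 0.53 ± 0.12 (0.040). Of 10 other V-ATPase subunits, 1 rose, Atp6v1d, by 0.68 ± 0.14 (0.030), and 9 of 10 averages were positive. Of 6 other cystatins, 1 rose, Stfa3, a stefin of neutrophils, by 3.72 ± 0.79 (0.033).

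The last list held 23 measured genes of TFEB control and autophagy. In the average 3 rose and 0 fell: Fnip2 (1.14 ± 0.18, limma adjusted p = 0.017) and Flcn (0.47 ± 0.11, 0.038), whose products form the folliculin complex that acts on lysosomal amino acid signalling, and Lamtor4 (0.52 ± 0.12, 0.041), a subunit of the complex that anchors mTOR signalling to lysosomes. Averages were positive for 18 of 23 and the median was 0.25. In each arm alone limma called 0 of the 23, with 4 higher in cells labelled shSirt1 (7.83% of all genes) and 7 in shLUC cells (9.49%) at an unadjusted p under 0.05.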

How the data were processed

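The authors deposited linear intensity values per probe set, linear as read from their range. RMA is the one tool named in the submitters' processing notes, without a version. It shrinks dim signals, so differences of dim genes are understated, and the notes do not tell whether the 8 arrays were normalized together. The number of arrays, not depth, limits the precision.

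The log2 of each value was taken with no pseudocount or further normalization. Of 45101 probe sets, 64 controls were left out, 34945 had 1 gene symbol, 932 several and 9160 were not listed, and 18193 genes resulted. Genes were tested with limma 3.58.1 (R 4.3.3, version 1.17.8 of data.table; lmFit and eBayes) on 4 group means over all 8 arrays, with 4 residual degrees of freedom, and p-values were adjusted by Benjamini-Hochberg over all genes in each of 6 comparisons. All p-values are two-sided, and dim genes were kept. The test was checked on simulated data with independent noise of equal spread in every group and shifts added to 1 group. That check does not cover arrays that share a code or groups of unequal spread, and it lends no support to single calls.

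The 48 genes and all lists were chosen with earlier results of these data known. Values on every array are given for genes called in any comparison, the 2 genes of each role with the largest averaged difference, and Tfeb, Tfec, Mitf, Lamp1, Ctsd and Lyz2. Of the other lists, called genes are named, at most 4 per list by size, with Tfe3.

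The pairing of arrays comes from the codes shared in the titles. Deviations from the group means correlated between the agents at 0.38 in cells labelled shSirt1 and 0.29 in shLUC cells, and between unrelated codes at 0.40 in EPZ4777 and 0.04 in DMSO. Blocked values (2 residual degrees of freedom) stand beside results they change. Tried as alternatives were each array left out, a threshold of 0.10, the code as a fixed or random block, a fit on the compared arrays alone, robust or trended variance, centring on the median, quantile normalization, removal of dim genes, all probe sets singly, and their mean per gene. Leaving out both A5 or both A1 arrays was added after the data were seen.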

Additional observations from a re-analysis of the deposited data

Results flagged for a closer look

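Some genes went in opposite directions in the arms, down in EPZ4777 in both codes labelled shSirt1 and up in both shLUC codes. For these the difference of the drug effects, cells labelled shSirt1 minus shLUC cells, was -2.41 log2 for Lgmn, -1.93 for Ctss, -1.25 for Psap, -0.64 for Ctsl, -0.61 for Glb1, -0.51 for Mitf, -0.49 for Ctsa, -0.40 for Npc2, -0.25 for Hexa and -0.22 for Lamp2. Atp6v1h went up in both codes labelled shSirt1 and down in both shLUC codes, with a difference of 0.37. In limma, none of these 11 differences passed the threshold, with adjusted p-values between 0.46 and 0.88. Some code differences were very small: -0.0078 for Lamp2 and -0.0099 for Hexa in A1, and 0.0086 for Npc2 in D11. All other probe sets of Lamp2 were positive in both arms (0.25, 0.06 and 0.21 in cells labelled shSirt1). So was a much dimmer probe set of Ctsl (0.24), Ctsa (0.13) and Npc2 (0.22). The dimmest probe set of Atp6v1h had the signs reversed (-0.03 and 0.03).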

How the results depend on the processing

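Counts of lysosomal genes called moved with the setting, except that the difference of the drug effects had 0 calls in all of them. Apart from the fixed block, the shares of all genes called under these settings are not given. A changed count therefore need not concern the lysosomal genes in particular. In shLUC cells 4 were called, 9 with the code as a fixed replicate block, 11 as a random one, and 10 at an adjusted p under 0.10. With every probe set by itself 8 were called in shLUC cells, among them Ctsc, which fell. A fit of the compared arrays alone gave 3 there (Ctss, Lgmn and Lyz2), which kept 1 of the 4 calls. In cells labelled shSirt1 the count of 0 became 2 with either replicate block and 1 at 0.10, and the average of 9 became 14 with the fixed block. In cells labelled shSirt1 the fixed block called Lyz2 and Atp6v0a1 higher, and the random block called Atp6v0a1 higher and Psap lower. The call at 0.10 was Psap, lower. Between the arms in EPZ4777 the 3 became 5 with trended variance or the random block, 6 with robust variance and 7 at 0.10. Without both A5 arrays the counts were 1 in cells labelled shSirt1 (median 0.052), 1 in the average, 3 between the arms in DMSO and 6 in EPZ4777, and without both A1 arrays 2 in the average. Where an array is left out, the lone one of its group is assumed to vary like the other groups. Leaving out 1 array gave 0 to 9 calls in shLUC cells (median 0.19 to 0.40), 0 to 0 in cells labelled shSirt1 (0.034 to 0.22), 0 to 9 in the average (0.14 to 0.26), and 0 to 1 and 0 to 4 between the arms in DMSO and EPZ4777. Leaving out 1 array in turn also changed the sign of small differences, with ranges of -0.041 to 0.35 for Mitf and -0.26 to 0.019 for Tfec in shLUC cells, -0.036 to 0.42 for Ctsb and -0.14 to 0.53 for Lipa in cells labelled shSirt1, and -0.20 to 0.28 for Ctss and -0.24 to 0.044 for Mitf in the average. Turned signs came without the A4 DMSO array (Mitf in shLUC cells, Ctss -0.041), the D11 EPZ4777 array (Tfec), the A1 DMSO array (Ctss, Lipa -0.075) and the A5 EPZ4777 array (Ctsb, Lipa, Mitf in the average). The average became -0.16 for Ctss without both A1 arrays and 0.044 for Mitf without both A5 arrays. The causes were not tested, beyond the fewer samples of those fits. Under the other settings, 633 of 692 single-gene differences kept direction and call, 48 newly passed, 11 no longer did and 0 turned. Signal over background was not assessed here.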
